A study of Mus musculus with 30 samples.

Results

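The heart's electrical genes examined here are 31 genes for ion channels and connexins: 3 sodium channel subunits, 2 pacemaker channels, 7 subunits of inwardly rectifying and ATP-sensitive potassium channels, 10 subunits of other potassium channels, 5 calcium channel subunits and 4 connexins. They were taken by name, with no measured value in the rule, as the rows whose Ensembl ID maps to a listed symbol. The list of symbols was drawn up with earlier results of these data known. How many of its genes differ, set against all genes, is therefore a description and not an independent test. All 31 were among the 78258 genes of the postpartum study's table and among the 56691 genes of the diet study's table. In a working heart cell, sodium channels start the action potential, calcium channels carry its plateau and start contraction, and several potassium currents end it and hold the resting potential. Pacemaker channels drive spontaneous firing in nodal cells, and connexins form the gap junctions that pass the impulse from cell to cell. Most of these channels are built from a pore-forming subunit and accessory subunits that change its gating or its number at the membrane.

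The hearts came from mice with the p.S55L form of CHCHD10, a mitochondrial protein of the intermembrane space, and from wild-type (WT) mice. The postpartum study had S55L and WT mice mated at 65 days of age and taken on the day of birth, postpartum day 0 (PP), and S55L and WT mice that were aged to 100 days and are labelled naive. In the diet study every mouse was S55L, was fed either the EH301 diet or the control diet while breeding, and was killed on postpartum day 0. The labels do not say whether the mutation is carried on 1 or both alleles, which sex the naive mice were, or whether each library came from a separate mouse, so the p-values reflect only how these libraries vary, possibly for technical reasons. Of 5 deposited columns a group, S55L PP 1 and 2 held identical counts, as did WT PP 1 and 2, and each pair was used once. The substitution itself cannot be read from gene counts, and the Chchd10 transcript differed by log2 0.73 (SE 0.19, adjusted p = 0.0028) in S55L naive against WT naive hearts and by 0.29 (SE 0.21, adjusted p = 0.31) in S55L PP against WT PP hearts. Control diet 5 and EH301 diet 6 were also identical to each other and were left out. That left 4 libraries of S55L PP, 5 of S55L naive, 4 of WT PP, 5 of WT naive, 4 of EH301 diet and 4 of control diet.

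Promoter sequence is shown for 3 members whose transcripts were much lower in S55L hearts, chosen after their values were seen, so that the letters near their start can be read beside the counts. These are RefSeq promoters of build GRCm38.p6, 250 bases before to 50 bases after the RefSeq start, and capitals mark matches to a motif that was searched on both strands. A match in capitals is a description of letters and not a shown binding site.
Kcnj3, chr2:55435720-55436019, plus strand: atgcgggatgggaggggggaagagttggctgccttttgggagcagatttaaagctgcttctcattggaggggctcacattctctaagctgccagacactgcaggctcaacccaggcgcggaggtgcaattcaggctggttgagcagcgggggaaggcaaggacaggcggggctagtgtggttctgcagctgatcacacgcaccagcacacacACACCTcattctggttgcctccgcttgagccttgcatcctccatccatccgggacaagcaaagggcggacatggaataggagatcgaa
Hcn4, chr9:58822699-58822998, plus strand: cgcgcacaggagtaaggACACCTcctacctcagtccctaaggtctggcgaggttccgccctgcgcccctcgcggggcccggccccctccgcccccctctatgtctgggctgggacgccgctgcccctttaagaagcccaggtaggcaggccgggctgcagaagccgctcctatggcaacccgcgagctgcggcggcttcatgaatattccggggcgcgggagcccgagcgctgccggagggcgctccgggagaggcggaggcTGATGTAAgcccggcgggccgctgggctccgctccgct
Scn4b, chr9:45138374-45138673, plus strand: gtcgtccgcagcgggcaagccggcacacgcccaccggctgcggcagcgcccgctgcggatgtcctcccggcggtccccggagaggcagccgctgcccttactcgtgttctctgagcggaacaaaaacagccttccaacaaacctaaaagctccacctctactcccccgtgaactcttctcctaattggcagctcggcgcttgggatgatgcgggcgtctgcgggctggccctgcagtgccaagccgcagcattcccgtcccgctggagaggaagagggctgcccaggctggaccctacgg

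The searched motifs were a T-box site (AGGTGT), the C/EBP-ATF response element of the integrated stress response (TGATGNAA) and a MEF2 site (CTA and TAG with 4 bases of any kind between). The other searched motif, for GATA factors, was AGATAA. Kcnj3 and Hcn4 each hold the reverse complement of the T-box letters, at 38 and 233 bases before the start, and Hcn4 holds TGATGTAA at base 13 after it. Scn4b holds none of the 4 in this window. Among the 21 members found in the promoter table, 4 hold the T-box letters (Kcnj3, Hcn4, Kcnj8 and Gja3), as do 13.7% of all 32817 promoters of the same length. The response element occurs in 1 of the 21, Hcn4, and in 3.97% of all promoters. MEF2 letters occur in Gja3 alone of the 21 and in 3.69% of all, and GATA letters in Gja1 alone of the 21 and in 11.2% of all. The bases just after the RefSeq starts of Kcnj3 and Scn4b occur in the first part of a GENCODE M21 transcript of the gene, while those of Hcn4 do not. Whether the starts themselves coincide was not checked.

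Library depth and the levels of cell type markers differed between the genotypes. Reads on genes numbered 2755500 to 4157372 in S55L PP, 3369420 to 5131316 in S55L naive, 1897249 to 2949993 in WT PP and 1418715 to 2307283 in WT naive libraries. The well codes put all S55L libraries in plate columns 2 and 3, and all WT libraries in column 1 except WT PP 1 in column 2, so genotype and plate column can hardly be told apart. The summed level of 8 ventricular muscle markers was 25913 to 33898 CPM (the usual per-library scaling of read counts to a common total, with TMM factors) in S55L PP and 29281 to 41315 in S55L naive, against 53461 to 69155 in WT PP and 53140 to 68607 in WT naive hearts. The 10 atrial markers summed to 3480 to 5517, 1137 to 3940, 424 to 1110 and 416 to 706 CPM in S55L PP, S55L naive, WT PP and WT naive. Nppa, which ventricles can also make, was at 3007 to 5037, 754 to 3538, 173 to 833 and 160 to 439 CPM of these. The atrial light chain gene Myl7 was at 0 in every WT library and at most 0.674 CPM in any S55L library. Other atrial markers differed between the genotypes in both directions. Of the 8 that were tested, edgeR called 5 higher and 3 lower in naive hearts. In PP hearts it called 4 higher and 2 lower, so neither the sum nor Myl7 speaks for the whole list. Of all genes tested, 43.5% were called in naive and 31.5% in PP hearts. The 8 conduction markers summed to 154 to 181, 143 to 186, 92.9 to 156 and 119 to 165 CPM in the same 4 groups, with Isl1 and Vsnl1 at 0 in all. Only 3 of these 8 genes were tested, with 1 called higher and 0 lower in each genotype comparison. The conduction sum therefore does not speak for its whole list either. Macrophage markers, 10 genes, summed to 1442 to 2525 and 1615 to 1975 CPM in S55L PP and naive hearts, against 421 to 537 and 298 to 378 CPM in WT PP and naive hearts. Fibroblast sums were 3504 to 4558 and 3437 to 4210 CPM, against 2294 to 2898 and 2088 to 2789 CPM. Pericyte and smooth muscle sums were 1448 to 2176 and 1555 to 3567 CPM, against 524 to 895 and 646 to 827 CPM. Acta2, whose levels are given in the last section, made up most of the S55L sums. Of the 9 genes of this list that were tested, edgeR called 7 lower and 1 higher in naive hearts. In PP hearts it called 4 lower and 1 higher, so the higher sum does not speak for the whole list. Endothelial sums were 805 to 1538 and 996 to 1330 CPM, against 1342 to 1596 and 1424 to 1755 CPM. Schwann cell and nerve sums were 144 to 251 and 176 to 297 CPM, against 27.3 to 45.3 and 34.0 to 56.2 CPM, and skeletal muscle sums were 205 to 666 and 237 to 445 CPM, against 856 to 1219 and 1025 to 1516 CPM. Only 4 of the 10 Schwann cell and nerve genes had enough reads for the edgeR test described below. In naive hearts 1 was called higher and 1 lower, and in PP hearts 2 higher and 1 lower. Of the 10 skeletal muscle genes only 1 was tested, and it was called lower in both comparisons. Neither sum therefore speaks for its whole list. In whole-heart RNA, fewer cells of a type and less RNA per cell cannot be told apart, and the part of these shifts in the channel results was not tested.

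The p.S55L hearts had lower transcript levels of most of the channel genes, in naive and in PP mice alike, while Kcne1 was higher in both and Kcnip2 slightly higher in naive hearts. In S55L naive against WT naive hearts, 20 of the 27 members that passed the filter on low counts were called by the quasi-likelihood test of edgeR (adjusted p below 0.05, by Benjamini-Hochberg over all 11945 genes tested). Of these, 18 fell and 2 rose, whereas 43.5% of all genes tested were called, 21.6% lower and 21.9% higher. In S55L PP against WT PP hearts, 19 of 27 were called, 18 lower and 1 higher, where 31.5% of all genes were called, 15.2% lower and 16.3% higher. The libraries of the genotypes did not overlap at all for 13 members in naive hearts (32.2% of all genes) and for 16 in PP hearts (25.4% of all genes). The median log2 fold change of the 27 members was -0.90 in naive and -0.99 in PP hearts, against -0.0039 and -0.00068 over all genes. These comparisons share no library, and 17 members were called the same way in both: 16 lower, and Kcne1 higher. Hcn2, Kcnip2 and Gja3 were called in naive hearts alone, Kcnj11 and Kcna5 in PP hearts alone, and Abcc8, Kcnd3, Cacna1d, Gja1 and Gjc1 in neither. Scn4a, Scn3b, Kcna4 and Gja5 had too few reads to be tested. Whether a call in one comparison and not in the other is a difference was tested by the interaction given further on.

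**Figure D1:**
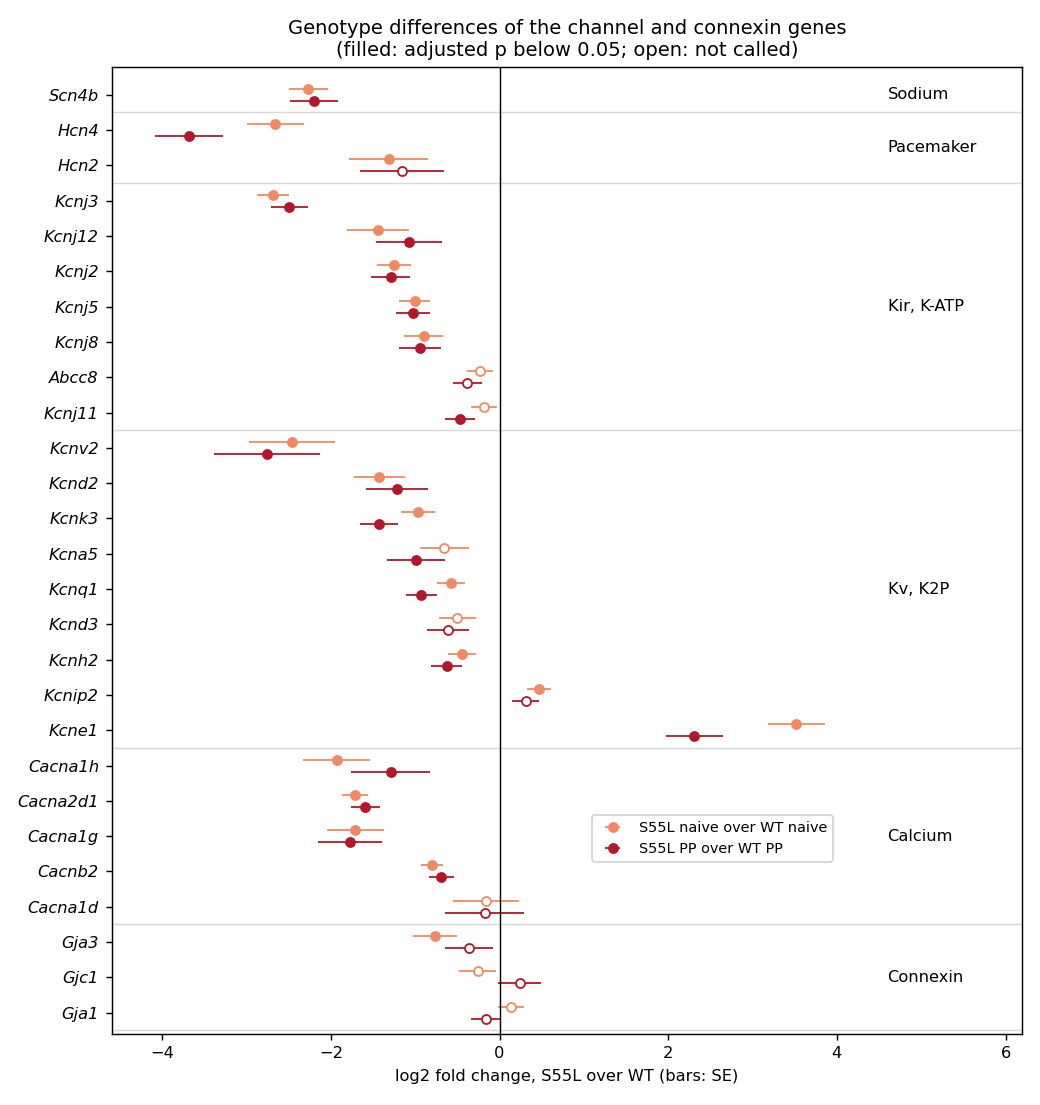
Log2 fold changes (horizontal axis, S55L over WT) of the 27 tested genes, grouped by role, in naive hearts (orange) and PP hearts (red), with bars of 1 standard error. Filled points are called at an adjusted p below 0.05, and all of them lie left of 0 but Kcne1 at 3.52 and 2.31 and Kcnip2 at 0.47 in naive hearts.

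Scaling by total reads in place of TMM moved the median log2 fold change of all genes to 0.24 in naive and 0.27 in PP hearts. It also moved the split of called genes to 73.0% and 78.0% higher, beside 50.3% and 51.8% with TMM. On that scale 16 of the 27 members were called in naive hearts (2 higher, 14 lower) and 13 in PP hearts (2 higher, 11 lower). Thinning every library to the depth of the smallest left 13 members called in each comparison. It ended the naive calls of Hcn2, Kcnj12, Kcnh2, Kcnq1 and Gja3 and the PP calls of Kcnj12, Kcna5, Kcnd2 and Kcnh2, and it left Kcnv2 and Cacna1h with too few reads to test. Adding the plate column to the fit gave 12 and 8 called members. These were 11 of the 20 naive calls together with Kcnd3, which was not called before, and 8 of the 19 PP calls. In that fit genotype is separated from column by WT PP 1, which shares its column with the S55L naive libraries and S55L PP 5. The PP comparison of that fit thus rests on S55L PP 5 against WT PP 1, 1 library on each side. Hcn4, Kcnj2, Kcnj3, Kcne1, Cacna2d1 and Cacnb2 were called in both comparisons under every alternative that was run, and Scn4b, Kcnj5, Kcnk3 and Cacna1g under all but the plate column. The counting's strand setting is not given in the sources used here, and the exons of Kcnj3, Kcnd3, Kcnq1, Kcnk3, Cacna1d, Cacna1h, Cacnb2 and Gja5 overlap a gene on the other strand in GENCODE M21. Depending on that setting, their counts may lack reads that were set aside as ambiguous, or may hold reads of the overlapping gene.

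Sodium channels start the upstroke, and Scn4b encodes the beta-4 accessory subunit that lets the channel reopen. Scn4b had 3.63, 2.696, 4.04 and 5.61 CPM in S55L PP hearts and 7.51, 4.82, 3.57, 9.67 and 6.32 CPM in S55L naive hearts, against 15.6, 13.4, 21.1 and 22.2 CPM in WT PP hearts and 37.1, 23.7, 30.4, 32.7 and 27.2 CPM in WT naive hearts. Every S55L library was below every WT library in both comparisons, and WT PP hearts were also below WT naive hearts. The log2 fold change was -2.27 (SE 0.23, adjusted p = 1.1e-08) in naive and -2.20 (SE 0.29, adjusted p = 1.0e-06) in PP hearts, which are 4.81-fold and 4.58-fold lower. With the plate column in the fit, the PP value was -1.47 and no longer called (adjusted p = 0.059). Scn3b, the beta-3 subunit, and Scn4a, the pore of skeletal muscle, were near the limit of counting. Scn3b had 25 reads over the S55L PP libraries and 23 reads over the S55L naive libraries, against 5 reads over the WT PP libraries and 4 reads over the WT naive libraries, libraries that differ in depth. As levels these were 1.12 to 2.49 CPM in S55L PP and 0.284 to 1.43 CPM in S55L naive hearts, against 0 to 1.12 CPM in WT PP and 0 to 1.48 CPM in WT naive hearts, with overlap in naive hearts. Scn4a had 4 reads over the S55L PP libraries and 9 reads over the S55L naive libraries, against 19 reads over the WT PP libraries and 22 reads over the WT naive libraries. As levels these were 0 to 0.808 CPM in S55L PP and 0.179 to 0.834 CPM in S55L naive hearts, against 0.717 to 6.64 CPM in WT PP and 1.55 to 3.51 CPM in WT naive hearts, with overlap in PP hearts. Of 10 other sodium channel genes, 4 were tested. In naive hearts 1 was called, Scn3a, which was lower (log2 -1.18, adjusted p = 0.032), and in PP hearts 1 was called, which was higher. Of all genes tested, 43.5% were called in naive and 31.5% in PP hearts, so these counts are no result about the list.

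Of the pacemaker channels, Hcn4 is the main isoform of the sinoatrial node and Hcn2 the one most linked to ventricle. Hcn4 had 0.838, 1.57, 0.808 and 0.624 CPM in S55L PP hearts and 2.29, 1.07, 1.34, 1.99 and 1.74 CPM in S55L naive hearts, against 12.7, 11.7, 23.6 and 6.45 CPM in WT PP hearts and 10.8, 9.798, 14.6, 8.03 and 10.4 CPM in WT naive hearts. The highest S55L value, 2.29 CPM, lay below the lowest WT value, 6.45 CPM. Its log2 fold change was -2.66 (SE 0.34, adjusted p = 4.4e-07) in naive and -3.68 (SE 0.40, adjusted p = 6.6e-08) in PP hearts. These rest on few reads, 15 over the 4 S55L PP libraries and 38 over the 5 S55L naive libraries, against 113 and 93 in WT. Hcn2 had 6.99, 2.02, 2.42 and 2.18 CPM in S55L PP hearts and 1.88, 1.25, 7.14, 1.99 and 1.53 CPM in S55L naive hearts, against 11.97, 3.35, 7.85 and 6.45 CPM in WT PP hearts and 9.79, 5.72, 4.68, 4.59 and 8.91 CPM in WT naive hearts. S55L PP 1 and S55L naive 3 reached into the WT range, and the other S55L libraries lay below it. Hcn2 was called in naive hearts (-1.32 (SE 0.47, adjusted p = 0.027)) and not in PP hearts (-1.16 (SE 0.50, adjusted p = 0.079)). The naive call was lost without any 1 of 6 libraries, WT naive 1 or 5 or S55L naive 1, 2, 4 or 5 (log2 -1.24 to -1.11, adjusted p = 0.052 to 0.085), under total counts (-1.08, adjusted p = 0.074) and after thinning (-1.73, adjusted p = 0.050). The PP value passed without WT PP 3 or S55L PP 1 (-1.37 and -1.76, adjusted p = 0.044 and 0.0087) and with no filter on low counts (-1.08, adjusted p = 0.028).

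**Figure D2:**
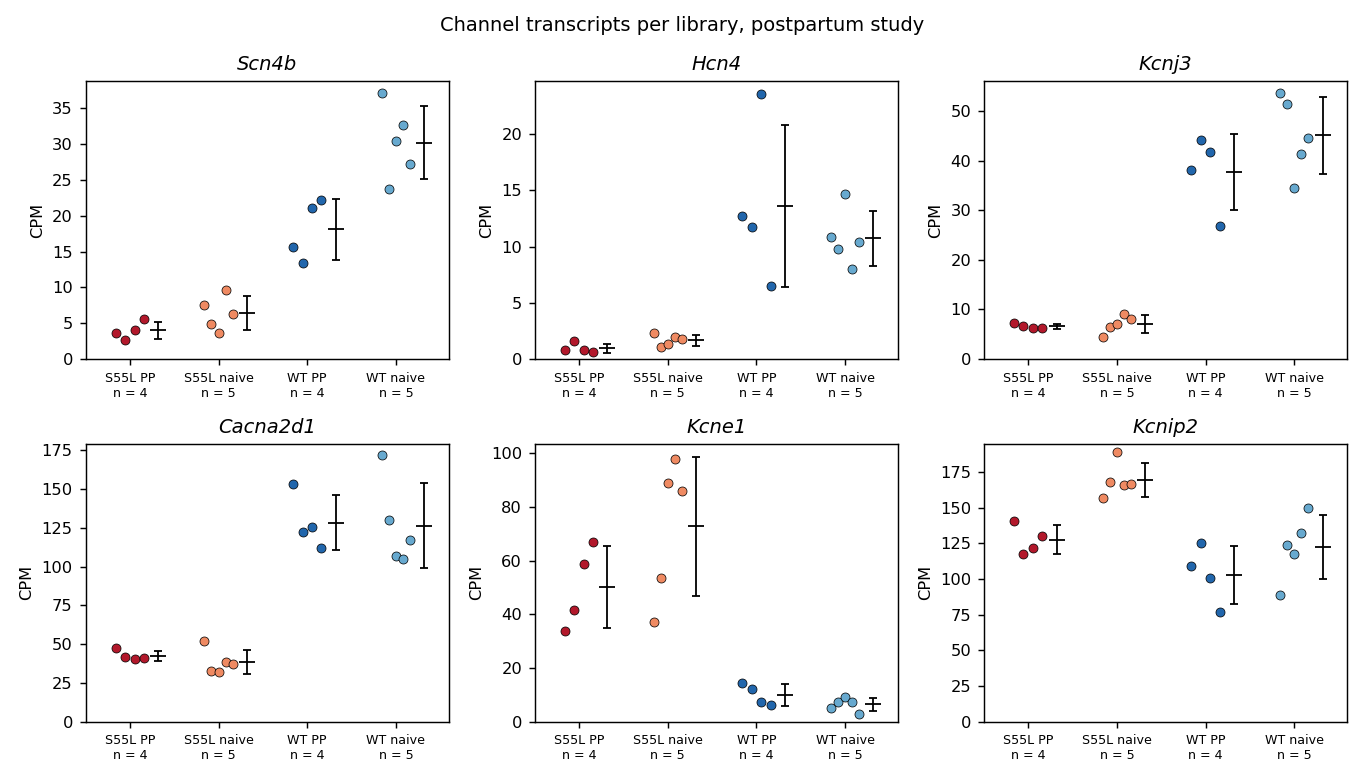
CPM per library (points) of 6 genes in the 4 groups of the postpartum study, with the mean and SD beside each group. Scn4b, Hcn4, Kcnj3 and Cacna2d1 lie lower in both S55L groups with no overlap, Kcne1 lies higher with no overlap, and Kcnip2 overlaps in PP hearts.

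Among the inward rectifiers, Kcnj3 and Kcnj5 encode the partners of the acetylcholine-activated channel (Kir3.1 and Kir3.4), Kcnj2 and Kcnj12 the subunits of the resting current IK1 (Kir2.1 and Kir2.2), and Kcnj8, Kcnj11 and Abcc8 subunits of ATP-sensitive channels. All 7 were tested, and 5 were called lower in naive and 6 in PP hearts. Of all genes tested, 21.6% were called lower in naive and 15.2% in PP hearts. Kcnj3 had 7.27, 6.74, 6.19 and 6.24 CPM in S55L PP hearts and 4.38, 6.43, 7.14, 9.097 and 8.07 CPM in S55L naive hearts, against 38.1, 44.1, 41.7 and 26.9 CPM in WT PP hearts and 53.6, 51.4, 34.5, 41.3 and 44.5 CPM in WT naive hearts. No S55L library exceeded 9.10 CPM and no WT library was under 26.9 CPM. Kcnj3 was the member with the lowest adjusted p in both comparisons, at -2.69 (SE 0.19, adjusted p = 1.7e-11) in naive and -2.49 (SE 0.22, adjusted p = 1.4e-09) in PP hearts, 6.44-fold and 5.62-fold lower. Its partner Kcnj5 had 11.5, 9.89, 17.5 and 19.02 CPM in S55L PP hearts and 15.8, 14.1, 17.2, 17.6 and 20.7 CPM in S55L naive hearts, against 27.2, 32.4, 33.8 and 24.7 CPM in WT PP hearts and 38.1, 34.3, 34.5, 37.3 and 27.7 CPM in WT naive hearts. Here too the genotypes did not overlap, and the log2 fold change was smaller, -1.01 (SE 0.18, adjusted p = 5.3e-05) and -1.03 (SE 0.20, adjusted p = 0.00031). With the plate column the Kcnj5 values were -0.87 and -0.52, neither called (adjusted p = 0.070 and 0.36).

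Kcnj2 had 7.55, 9.89, 12.7 and 8.42 CPM in S55L PP hearts and 8.34, 13.6, 17.6, 13.1 and 12.6 CPM in S55L naive hearts, against 23.2, 25.1, 27.2 and 20.1 CPM in WT PP hearts and 37.6, 22.04, 37.4, 34.4 and 23.3 CPM in WT naive hearts. All S55L libraries were below all WT libraries, and the fold change was -1.25 (SE 0.20, adjusted p = 1.5e-05) in naive and -1.29 (SE 0.24, adjusted p = 0.00011) in PP hearts on the log2 scale. Kcnj12, with few reads, had 5.87, 2.47, 3.5004 and 3.43 CPM in S55L PP hearts and 2.29, 1.43, 4.68, 3.13 and 3.05 CPM in S55L naive hearts, against 5.44, 5.02, 12.7 and 9.32 CPM in WT PP hearts and 3.61, 12.2, 5.85, 8.605 and 9.896 CPM in WT naive hearts. Its genotypes overlapped in both comparisons, in naive hearts through WT naive 1. It was called in naive (-1.44 (SE 0.36, adjusted p = 0.0022)) and in PP hearts (-1.07 (SE 0.39, adjusted p = 0.034)). The PP call was lost without WT PP 4 or 5 or S55L PP 3, 4 or 5 (log2 -1.04 to -0.82, adjusted p = 0.068 to 0.14), under total counts (-0.79, adjusted p = 0.10) and with all deposited columns (-0.82, adjusted p = 0.060). The plate column ended both calls (-0.72 and -0.66, adjusted p = 0.50 and 0.62), as did thinning (-0.89 and -0.63, adjusted p = 0.16 and 0.43).

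Of the ATP-sensitive subunits, Kcnj8 (Kir6.1) had 17.9, 9.44, 17.2 and 14.3 CPM in S55L PP hearts and 11.3, 14.3, 16.5, 16.5 and 16.6 CPM in S55L naive hearts, against 38.4, 22.9, 25.97 and 24.7 CPM in WT PP hearts and 36.1, 12.2, 36.9, 27.5 and 25.2 CPM in WT naive hearts. S55L PP libraries were all below WT PP libraries, whereas WT naive 2 fell among the S55L naive values. Kcnj8 was called in naive (-0.90 (SE 0.23, adjusted p = 0.0021)) and PP hearts (-0.95 (SE 0.25, adjusted p = 0.0047)), though under total counts the PP value of -0.68 missed the threshold (adjusted p = 0.051). Kcnj11 (Kir6.2) had 103, 154, 178 and 145 CPM in S55L PP hearts and 129.9, 150.5, 205, 201 and 196 CPM in S55L naive hearts, against 168, 223, 222 and 193 CPM in WT PP hearts and 164, 184, 237, 206 and 211 CPM in WT naive hearts. Its groups overlapped in both comparisons. The PP difference was called at -0.47 (SE 0.18, adjusted p = 0.042), and the naive value was -0.18 (SE 0.16, adjusted p = 0.36). The PP call was lost without WT PP 3 or 4 or S55L PP 1, 3 or 5 (log2 -0.50 to -0.34, adjusted p = 0.061 to 0.14), under total counts (-0.19, adjusted p = 0.37), with the plate column (-0.22, adjusted p = 0.71), with no filter on low counts (-0.39, adjusted p = 0.13) and with the PP groups fitted alone (-0.48, adjusted p = 0.083). Abcc8 (SUR1), which neighbours Kcnj11 on chromosome 7, had 15.1 to 19.8 and 20.1 to 21.9 CPM in S55L PP and naive hearts and 20.4 to 25.4 and 20.3 to 29.4 CPM in WT PP and naive hearts. It was not called, at -0.23 (SE 0.15, adjusted p = 0.23) in naive and -0.38 (SE 0.17, adjusted p = 0.094) in PP hearts, although the PP groups did not overlap.

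The transient outward current ends early repolarisation and is carried by Kcnd2 and Kcnd3 (Kv4.2 and Kv4.3) with the accessory protein of Kcnip2 (KChIP2). In naive hearts Kcnd2 fell and Kcnip2 rose. Kcnd2 had 6.43, 4.27, 5.92 and 8.42 CPM in S55L PP hearts and 13.8, 6.08, 10.03, 11.9 and 5.02 CPM in S55L naive hearts, against 15.96, 15.6, 17.5 and 9.32 CPM in WT PP hearts and 45.8, 15.5, 14.04, 26.4 and 21.3 CPM in WT naive hearts. S55L hearts were lower with no overlap in either comparison, and WT naive 1 was far above the other WT hearts. The log2 fold change of Kcnd2 was -1.42 (SE 0.30, adjusted p = 0.00052) in naive and -1.22 (SE 0.37, adjusted p = 0.014) in PP hearts. The PP call was lost without S55L PP 3 (-1.06, adjusted p = 0.052), under total counts (-0.94, adjusted p = 0.061) and after thinning (-1.19, adjusted p = 0.067), and the plate column ended both calls (-1.64 and -0.92, adjusted p = 0.070 and 0.40). Kcnip2 had 140.3, 118, 121 and 130.3 CPM in S55L PP hearts and 157, 168, 189, 166 and 166 CPM in S55L naive hearts, against 109, 125, 101 and 76.7 CPM in WT PP hearts and 88.6, 124, 118, 132 and 149.9 CPM in WT naive hearts. Every S55L naive heart was above every WT naive heart, while S55L PP and WT PP hearts overlapped. Kcnip2 rose in naive hearts, by 0.47 (SE 0.14, adjusted p = 0.0094), a 1.38-fold difference, and was not called in PP hearts at 0.31 (SE 0.16, adjusted p = 0.14). Under total counts the PP value was 0.60 and called (adjusted p = 0.0038), and with the plate column the naive value was 0.35 and not called (adjusted p = 0.42). Kcnd3 had 7.54 to 15.3 CPM in S55L PP and 9.81 to 14.5 CPM in S55L naive hearts, against 12.2 to 21.8 CPM in WT PP and 12.9 to 20.3 CPM in WT naive hearts. It was called in neither comparison (-0.50 (SE 0.22, adjusted p = 0.062) and -0.61 (SE 0.24, adjusted p = 0.057)), and passed in naive hearts without WT naive 3 (-0.59, adjusted p = 0.039) and in PP hearts without WT PP 5 or S55L PP 5 (-0.72 and -0.85, adjusted p = 0.034 and 0.010). It also passed in naive hearts with the plate column (-1.23, adjusted p = 0.016) and with the naive groups fitted alone (-0.51, adjusted p = 0.030), and in PP hearts with all deposited columns (-0.76, adjusted p = 0.0062).

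The slow delayed rectifier pairs the pore of Kcnq1 with the small accessory subunit of Kcne1, which slows its opening. Kcne1 had 33.8, 41.6, 58.97 and 67.03 CPM in S55L PP hearts and 37.3, 53.6, 88.97, 98.1 and 86.1 CPM in S55L naive hearts, against 14.5, 12.3, 7.25 and 6.096 CPM in WT PP hearts and 5.15, 7.35, 9.36, 7.46 and 2.97 CPM in WT naive hearts. The lowest S55L value, 33.8 CPM, was above the highest WT value, 14.5 CPM. Kcne1 had the largest fold change of the members in naive hearts, 3.52 (SE 0.34, adjusted p = 5.1e-08) (11.4-fold), and 2.31 (SE 0.34, adjusted p = 2.3e-05) in PP hearts (4.96-fold), and it was called under every alternative run. Kcnq1 had 28.2, 30.3, 32.8 and 34.9 CPM in S55L PP hearts and 22.3, 24.3, 32.1, 32.7 and 37.1 CPM in S55L naive hearts, against 45.7, 75.9, 55.6 and 63.5 CPM in WT PP hearts and 36.6, 50.6, 52.1, 41.9 and 40.6 CPM in WT naive hearts. S55L PP hearts lay below WT PP hearts without overlap, and the naive genotypes overlapped, S55L naive 5 being above WT naive 1. Kcnq1 was called in naive (-0.57 (SE 0.17, adjusted p = 0.0068)) and PP hearts (-0.93 (SE 0.18, adjusted p = 0.00028)), but with the plate column neither held (-0.07 and -0.39), and in naive hearts the call was also lost under total counts (-0.32, adjusted p = 0.10), after thinning (-0.26, adjusted p = 0.34) and with no filter (-0.45, adjusted p = 0.054). Kcnh2, the pore of the rapid delayed rectifier, had 37.5 to 66.5 CPM in S55L PP and 41.9 to 66.4 CPM in S55L naive hearts, against 59.7 to 91.1 CPM in WT PP and 53.4 to 79.2 CPM in WT naive hearts. It was called in naive (-0.45 (SE 0.17, adjusted p = 0.034)) and PP hearts (-0.63 (SE 0.19, adjusted p = 0.011)). The naive call was lost without any 1 of 7 libraries, WT naive 1, 2 or 3 or S55L naive 1, 2, 4 or 5 (log2 -0.45 to -0.39, adjusted p = 0.051 to 0.083), and the PP call without S55L PP 3 (-0.51, adjusted p = 0.057). Neither Kcnh2 call held under total counts (-0.20 and -0.35, adjusted p = 0.39 and 0.19), with the plate column (-0.57 and -0.67, adjusted p = 0.23 and 0.21) or after thinning (-0.31 and -0.46, adjusted p = 0.19 and 0.097), nor the naive call with no filter (-0.32, adjusted p = 0.18).

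Within a library, the reads of a subunit can be set against those of its partner, as a ratio of reads and not of molecules. There were 1.20 to 1.92 Kcne1 reads per Kcnq1 read in S55L PP and 1.67 to 3 in S55L naive hearts, against 0.0960 to 0.317 in WT PP and 0.0732 to 0.180 in WT naive hearts. There were 15.5 to 27.6 Kcnip2 reads per Kcnd2 read in S55L PP and 11.4 to 33.1 in S55L naive hearts, against 5.76 to 8.23 in WT PP and 1.93 to 8.38 in WT naive hearts. Neither ratio overlapped between genotypes. For Abcc8 and Kcnj11 the ratio did overlap, at 0.0968 to 0.192 and 0.0978 to 0.169 in S55L PP and naive hearts and 0.106 to 0.131 and 0.0962 to 0.160 in WT PP and naive hearts. These ratios use the same counts as the tests and were not tested on their own.

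**Figure D3:**
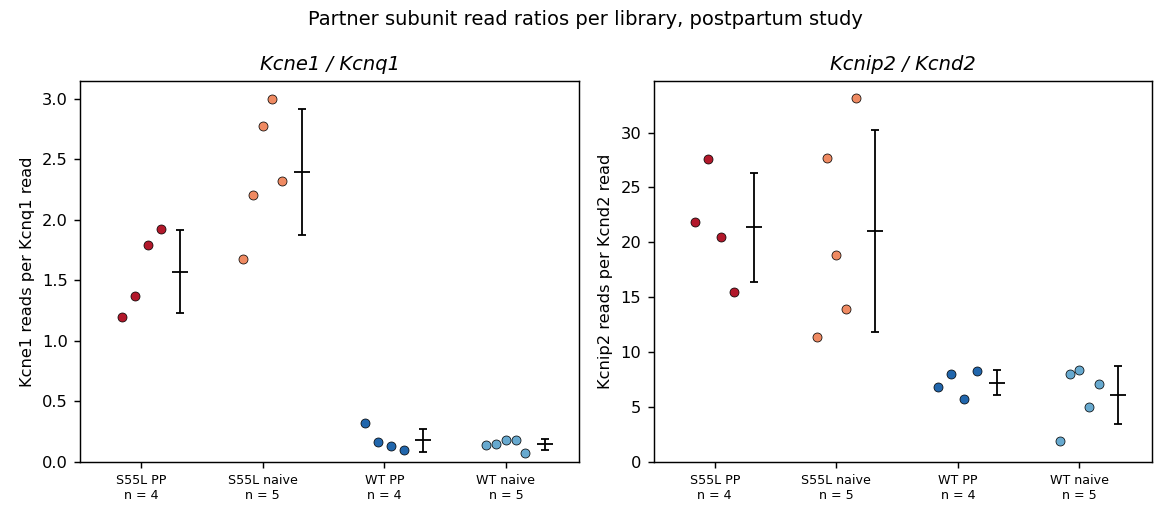
Reads of Kcne1 per Kcnq1 read (left) and of Kcnip2 per Kcnd2 read (right) in each library of the postpartum study (points), with the mean and SD beside each group. Both ratios are higher in every S55L library than in every WT library.

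Kcnk3 encodes TASK-1, a background potassium channel. It had 202, 213, 228 and 135 CPM in S55L PP hearts and 199, 217, 349, 227 and 208 CPM in S55L naive hearts, against 299.6, 625, 550.2 and 617 CPM in WT PP hearts and 310.1, 476, 487, 550.1 and 530.4 CPM in WT naive hearts. PP genotypes did not overlap, and in naive hearts S55L naive 3 exceeded WT naive 1. The log2 fold change was -0.97 (SE 0.20, adjusted p = 0.00038) in naive and -1.43 (SE 0.23, adjusted p = 2.6e-05) in PP hearts, and with the plate column the naive value was 0.02 and the PP value -1.15, of which the PP value alone was called (adjusted p = 0.97 and 0.025). Kcnv2 encodes Kv8.2, a silent subunit that modifies other potassium channels. Kcnv2 had 0.279, 0.674, 0.539 and 0.935 CPM in S55L PP hearts and 0.834, 0.536, 0, 2.56 and 0.872 CPM in S55L naive hearts, against 5.803, 6.699, 3.62 and 1.43 CPM in WT PP hearts and 6.696, 4.899, 3.51, 6.31 and 3.96 CPM in WT naive hearts. Its S55L values were below the WT values within each comparison, from 9 reads in S55L PP and 20 in S55L naive against 38 and 44 in WT. Its log2 fold change was -2.46 (SE 0.51, adjusted p = 0.00035) and -2.75 (SE 0.63, adjusted p = 0.0012), with the PP call lost under the plate column (-2.58, adjusted p = 0.11). Kcna5 (Kv1.5) had 3.07, 3.82, 4.58 and 7.48 CPM in S55L PP hearts and 9.799, 8.76, 3.34, 12.5 and 5.23 CPM in S55L naive hearts, against 7.62, 7.26, 11.5 and 11.1 CPM in WT PP hearts and 10.8, 11.4, 12.9, 15.5 and 11.4 CPM in WT naive hearts. Groups overlapped in both comparisons. It was called in PP hearts (-0.99 (SE 0.35, adjusted p = 0.028)) and not in naive hearts (-0.65 (SE 0.29, adjusted p = 0.066)). The PP call was lost without WT PP 4 or 5 or S55L PP 1, 3 or 4 (log2 -0.98 to -0.84, adjusted p = 0.053 to 0.082), under total counts (-0.72, adjusted p = 0.10), after thinning (-1.22, adjusted p = 0.089) and under the plate column (-0.03). The naive value passed without S55L naive 4 (-0.86, adjusted p = 0.021). Kcna4 (Kv1.4), with too few reads for a test, had 1.57 to 2.49 CPM in S55L PP and 1.31 to 3.12 CPM in S55L naive hearts, against 0 to 1.67 CPM in WT PP and 1.15 to 2.92 CPM in WT naive hearts, and the genotypes overlapped in both comparisons.

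Of the calcium channel genes, Cacna2d1 and Cacnb2 encode accessory subunits of the L-type channel that starts contraction, Cacna1g and Cacna1h the T-type pores Cav3.1 and Cav3.2, and Cacna1d the nodal and atrial L-type pore Cav1.3. The first 4 of these were called lower in both comparisons, where 21.6% of all genes were called lower in naive and 15.2% in PP hearts. Cacna2d1 had 47.2, 42.02, 40.1 and 40.8 CPM in S55L PP hearts and 51.7, 32.5, 32.1, 38.7 and 37.3 CPM in S55L naive hearts, against 153, 122, 126 and 112 CPM in WT PP hearts and 172, 129.8, 107, 105 and 117 CPM in WT naive hearts. The highest S55L value was 51.7 CPM and the lowest WT value 105 CPM. The log2 fold change was -1.71 (SE 0.16, adjusted p = 1.7e-09) in naive and -1.59 (SE 0.17, adjusted p = 6.4e-08) in PP hearts, 3.28-fold and 3.01-fold lower. Cacnb2 had 46.95, 55.5, 58.97 and 46.5 CPM in S55L PP hearts and 51.3, 51.3, 46.8, 51.2 and 50.6 CPM in S55L naive hearts, against 95.4, 72.01, 77.3 and 89.7 CPM in WT PP hearts and 92.2, 87.4, 70.8, 89.5 and 97.97 CPM in WT naive hearts. Again the genotypes did not overlap, with a smaller fold change of -0.80 (SE 0.13, adjusted p = 1.5e-05) and -0.69 (SE 0.14, adjusted p = 0.00051). Cacna1g had 1.96, 2.25, 2.42 and 1.87 CPM in S55L PP hearts and 1.46, 2.502, 3.34, 2.84 and 1.74 CPM in S55L naive hearts, against 8.71, 6.699, 9.06 and 5.38 CPM in WT PP hearts and 10.3, 4.08, 14.04, 4.59 and 5.44 CPM in WT naive hearts. All S55L values were under all WT values, and the log2 fold change was -1.71 (SE 0.34, adjusted p = 0.0002) in naive and -1.77 (SE 0.38, adjusted p = 0.00074) in PP hearts, the PP call being lost with the plate column (-2.19, adjusted p = 0.053). The Cacna1g values rest on few reads, 6 to 10 a library in S55L PP and 7 to 15 in S55L naive, against 12 to 24 in WT PP and 5 to 24 in WT naive hearts. Cacna1h had 1.96, 1.12, 1.62 and 0.312 CPM in S55L PP hearts and 0.834, 1.79, 2.01, 0.853 and 0.654 CPM in S55L naive hearts, against 2.18, 3.91, 3.62 and 3.23 CPM in WT PP hearts and 4.64, 5.72, 4.09, 5.74 and 4.45 CPM in WT naive hearts. S55L values stayed below WT values in both comparisons, narrowly so in PP hearts, where S55L PP 1 was at 1.96 and WT PP 1 at 2.18 CPM. Its log2 fold change was -1.93 (SE 0.39, adjusted p = 0.00029) and -1.29 (SE 0.47, adjusted p = 0.036). The PP call was lost without WT PP 3, 4 or 5 or S55L PP 3 or 5 (log2 -1.27 to -1.01, adjusted p = 0.067 to 0.11), under total counts (-1.03, adjusted p = 0.085) and with no filter (-1.21, adjusted p = 0.13), and the plate column ended both calls (-1.23 and -2.65). Cacna1d had 1.35 to 4.36 CPM in S55L PP and 2.18 to 4.83 CPM in S55L naive hearts, against 1.43 to 4.35 CPM in WT PP and 1.48 to 7.73 CPM in WT naive hearts, and was not called (-0.16 (SE 0.39, adjusted p = 0.76) and -0.18 (SE 0.47, adjusted p = 0.81)). Under total counts its sign turned (0.07 and 0.09). Cacna1c, the main pore of the ventricular L-type channel and not a member, was at 98.2 to 109 and 102 to 135 CPM in S55L PP and naive hearts and 96.1 to 108 and 105 to 125 CPM in WT PP and naive hearts.

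Of the 3 connexins tested, edgeR called 1 in naive hearts and 0 in PP hearts, where DESeq2 also called 0 and 0 had an unadjusted p under 0.05. Of all genes tested, edgeR called 43.5% in naive and 31.5% in PP hearts, so with 3 genes these counts are no result about connexins. Gja1 encodes connexin 43, the main ventricular gap junction protein. It had 341, 319.9, 296 and 427 CPM in S55L PP hearts and 275, 357, 360.3, 328 and 402 CPM in S55L naive hearts, against 429.8, 305, 309 and 499.9 CPM in WT PP hearts and 405, 264, 301, 318 and 280.0 CPM in WT naive hearts. Genotypes overlapped throughout, and the log2 fold change was 0.13 (SE 0.16, adjusted p = 0.51) in naive and -0.16 (SE 0.18, adjusted p = 0.52) in PP hearts, which at these errors does not show that the levels were alike. Its sign turned with the plate column in naive hearts (-0.07) and under total counts in PP hearts (0.11). Gja3 (connexin 46) had 8.38, 6.74, 12.4 and 5.92 CPM in S55L PP hearts and 4.59, 7.68, 8.25, 6.82 and 7.85 CPM in S55L naive hearts, against 9.79, 9.49, 13.9 and 10.4 CPM in WT PP hearts and 16.998, 10.6, 16.4, 8.605 and 7.42 CPM in WT naive hearts. Gja3 was called in naive (-0.77 (SE 0.26, adjusted p = 0.019)) but not in PP hearts (-0.36 (SE 0.29, adjusted p = 0.35)), with overlap in both. The naive call was lost without WT naive 1, WT naive 3 or S55L naive 1 (log2 -0.65 to -0.60, adjusted p = 0.053 to 0.088), under total counts (-0.53, adjusted p = 0.10), after thinning (-1.17, adjusted p = 0.056), with no filter (-0.64, adjusted p = 0.067) and with the plate column (-0.58). Gjc1 (connexin 45), the nodal connexin, had 11.5 to 30.2 CPM in S55L PP and 15.4 to 31.2 CPM in S55L naive hearts, against 13.99 to 21.4 CPM in WT PP and 17.96 to 28.7 CPM in WT naive hearts. Its log2 fold change was -0.26 (SE 0.22, adjusted p = 0.36) and 0.24 (SE 0.25, adjusted p = 0.5), neither called, and the PP sign turned with the plate column (-0.89). Gja5 (connexin 40), typical of atria and the conduction system, had 0 to 0.808 CPM in S55L PP and 0 to 0.834 CPM in S55L naive hearts, against 0 to 0.604 CPM in WT PP and 0 to 2.45 CPM in WT naive hearts, with overlap in both comparisons.

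Other genes of the same systems were counted from lists chosen with these data's earlier results known. Beside each count stand the 43.5% of all genes called in naive hearts (21.6% lower, 21.9% higher) and the 31.5% called in PP hearts (15.2% lower, 16.3% higher), and a share near these is no result about a list. Of 39 other potassium channel genes, 7 were tested. In naive hearts 5 of them fell, among them Kcnn1 (log2 -1.26, adjusted p = 0.0031) and Abcc9, the SUR2 subunit beside Kcnj8 on chromosome 6 (log2 -0.47, adjusted p = 0.014). In PP hearts 2 fell and 1 rose, among them Abcc9 (log2 -0.80, adjusted p = 0.00068), which fell, and Kcne4 (log2 1.10, adjusted p = 0.036). Of 14 other calcium-handling channel genes, 9 were tested, of which 5 fell in naive and 4 in PP hearts and none rose by edgeR. The leading ones were Cacna1s, the skeletal L-type pore (log2 -2.16, adjusted p = 9.7e-08 in naive and log2 -1.07, adjusted p = 0.0053 in PP hearts), Trpm4 (log2 -1.66, adjusted p = 6.8e-06 and log2 -1.17, adjusted p = 0.0029) and Cacng6 (log2 -2.93, adjusted p = 3.9e-05 in naive hearts). In PP hearts Cacng6 was called lower as well, with 1 read over the S55L PP and 17 over the WT PP libraries, too few to set a fold change. Of 11 other gap junction genes only 2 were tested, and Panx1, which forms large single-membrane channels, rose: 15.1 to 25.6 and 11.8 to 19.6 CPM in S55L PP and naive hearts against 0 to 1.08 and 0 to 1.15 CPM in WT PP and naive hearts (log2 4.73, adjusted p = 1.1e-09 in naive and log2 4.99, adjusted p = 1.4e-09 in PP hearts).

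All 20 genes of the intercalated disc and channel anchoring list were tested, with 3 higher and 10 lower in naive and 3 higher and 9 lower in PP hearts. Dsg2, a desmosomal cadherin, and Ank2, an ankyrin that anchors channels and pumps, fell in naive hearts (log2 -1.004, adjusted p = 6.2e-07 and log2 -0.84, adjusted p = 4.6e-06), and Ctnnb1, beta-catenin, rose (log2 1.002, adjusted p = 4.0e-06). In PP hearts the leading genes were Ank2 (log2 -0.85, adjusted p = 2.4e-05), Ctnnb1 (log2 0.87, adjusted p = 0.00017) and Cav3, the caveolin of muscle (log2 -0.95, adjusted p = 0.00077). Of 10 ion pump and exchanger genes, 2 rose and 4 fell in naive and 1 rose and 3 fell in PP hearts, the PP count being near the 31.5% of all genes. The chloride-bicarbonate exchanger gene Slc4a3 fell (log2 -1.46, adjusted p = 1.3e-07 and log2 -1.30, adjusted p = 6.8e-06), as did Fxyd1, phospholemman, which regulates the sodium pump (log2 -1.39, adjusted p = 1.9e-06 and log2 -1.37, adjusted p = 1.6e-05). Among 19 tested of 21 regulators of channel genes, 2 rose and 9 fell in naive and 1 rose and 8 fell in PP hearts. Gata6 fell in both (log2 -1.31, adjusted p = 1.3e-07 and log2 -1.09, adjusted p = 1.6e-05). Tbx5 fell (log2 -1.20, adjusted p = 2.0e-06) and Popdc3 rose (log2 0.97, adjusted p = 0.00016) in naive hearts, and Tbx3 (log2 -1.47, adjusted p = 3.2e-05) and Irx4 (log2 -0.999, adjusted p = 0.00031) fell in PP hearts.

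Within a genotype, PP hearts were set against naive hearts, comparisons that share their libraries with those of genotype. In WT PP against WT naive hearts edgeR called 0 of 27 members, as did DESeq2, where 0.0167% of all genes were called, and 3 members had an unadjusted p under 0.05. These 3 were Scn4b (-0.74 (SE 0.24, adjusted p = 0.52)), Kcnd2 (-0.79 (SE 0.33, adjusted p = 0.72)) and Kcnq1 (0.44 (SE 0.18, adjusted p = 0.69)). In S55L PP against S55L naive hearts edgeR and DESeq2 also called 0 of 27, where edgeR called 0% of all genes, and 3 had an unadjusted p under 0.05: Scn4b (-0.67 (SE 0.28, adjusted p = 0.72)), Kcna5 (-0.75 (SE 0.31, adjusted p = 0.72)) and Kcnip2 (-0.41 (SE 0.15, adjusted p = 0.67)). Libraries did not overlap for 2 members in WT (Scn4b and Cacna1h, all WT PP values lower), against 1.88% of genes, and for 2 in S55L (Kcnip2 and Abcc8, all S55L PP values lower), against 2.25% of genes. Scn4b averaged 3.995 ± 1.22 CPM (SD, n = 4) in S55L PP and 6.38 ± 2.37 CPM (SD, n = 5) in S55L naive hearts, and 18.1 ± 4.27 CPM (SD, n = 4) in WT PP and 30.2 ± 5.13 CPM (SD, n = 5) in WT naive hearts. Kcnip2 averaged 127 ± 10.1 CPM (SD, n = 4) in S55L PP and 169 ± 11.9 CPM (SD, n = 5) in S55L naive hearts, and 103 ± 20.1 CPM (SD, n = 4) in WT PP and 122 ± 22.5 CPM (SD, n = 5) in WT naive hearts. The other panel genes had log2 differences, PP over naive, of -0.08 for Cacna1g, 0.30 for Hcn4, 0.15 for Hcn2, -0.39 for Kcnj2, -0.25 for Kcnip2 and 0.30 for Gja1 in WT. In S55L these were -0.14 for Cacna1g, -0.72 for Hcn4, 0.30 for Hcn2, -0.43 for Kcnj2, -0.59 for Kcnd2 and 0.01 for Gja1. None of these was called, at standard errors of 0.15 to 0.49. Over all 27 members the differences ran between -0.79 and 0.67 in WT and between -0.75 and 0.39 in S55L.

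The interaction asked whether the PP difference in S55L hearts departed from that in WT hearts, or equally whether the genotype difference departed between PP and naive hearts. By edgeR and by DESeq2 0 of 27 members were called, where 0% of all genes were called by edgeR, and 1 had an unadjusted p under 0.05. That was Kcne1, whose interaction was -1.21 (SE 0.50, adjusted p = 1) on the log2 scale. S55L PP hearts averaged 50.3 ± 15.3 CPM (SD, n = 4) and S55L naive hearts 72.8 ± 26.01 CPM (SD, n = 5), whereas WT PP hearts averaged 10.03 ± 4.01 CPM (SD, n = 4) and WT naive hearts 6.46 ± 2.45 CPM (SD, n = 5). Hcn4 had the next largest value, -1.02 (SE 0.56, adjusted p = 1). Of the genes called in one genotype comparison alone, the interaction was 0.16 for Hcn2, -0.16 for Kcnip2, 0.40 for Gja3, -0.29 for Kcnj11 and -0.34 for Kcna5, none called. For the rest of the panel it was 0.07 for Scn4b, -0.04 for Kcnj2, 0.21 for Kcnd2, -0.07 for Cacna1g and -0.29 for Gja1, with standard errors of 0.24 to 0.51.

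In the diet study, S55L hearts of the EH301 diet were set against S55L hearts of the control diet, all from PP mice. EH301 is a mixture of pterostilbene and the NAD precursor nicotinamide riboside. Reads on genes numbered 1141997 to 3048461 in EH301 and 466651 to 2982870 in control libraries, of which control diet 1 was the shallowest. Of 31 members 20 had enough reads to be tested, and edgeR and DESeq2 called 0, where 0% of all 10335 genes were called by edgeR and 0 members had an unadjusted p under 0.05. No member separated the diets without overlap, against 1.5% of all genes. The median log2 fold change of the 20 was 0.0062, beside 0.021 over all genes, and their values ran between -1.07 and 0.32.

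**Figure D4:**
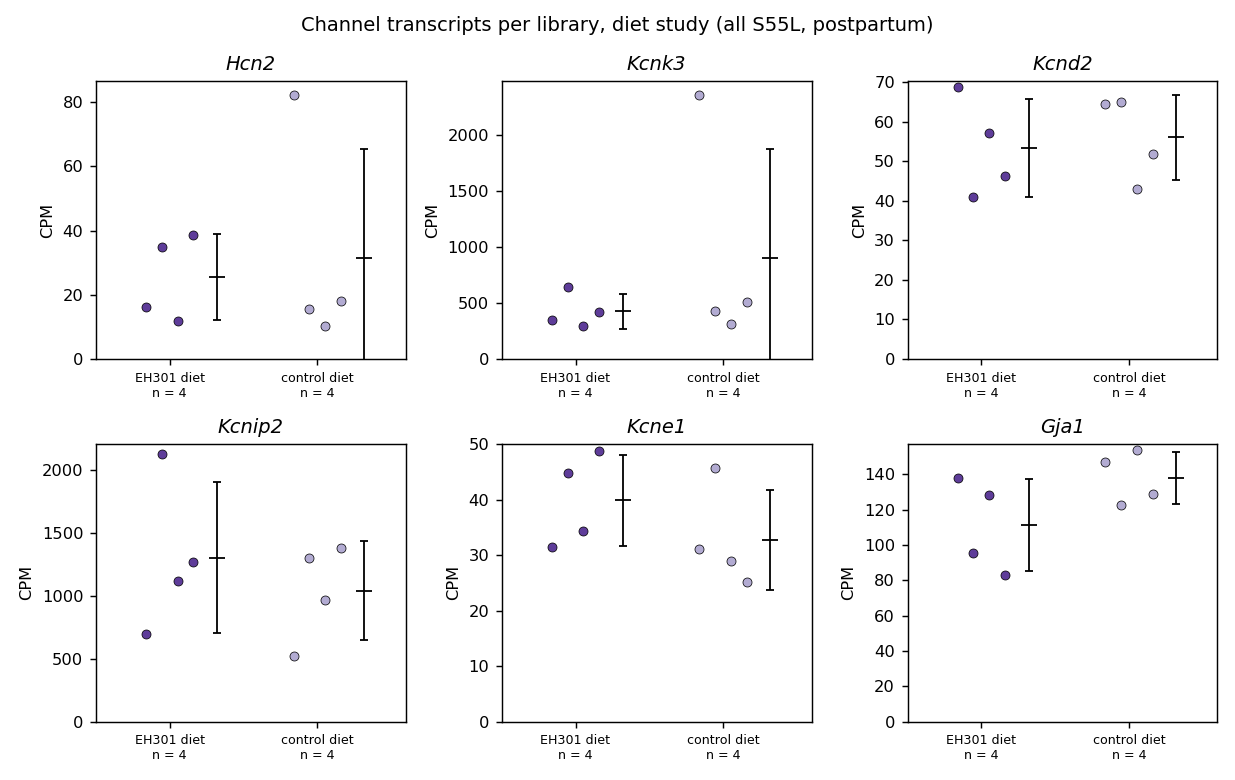
CPM per library (points) of 6 genes in the diet study, where all hearts are S55L and PP, with the mean and SD beside each diet; SD bars are cut at 0. The diets overlap for all 6 genes. Control diet 1, the shallowest library, stands far above the others in CPM, but not in raw reads, for Hcn2 and Kcnk3.

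Kcnk3 had the largest diet difference, -1.07 (SE 0.58, adjusted p = 1). It had 345, 647, 296 and 419 CPM in EH301 hearts, against 2364, 427, 313 and 506 CPM in control hearts. Control diet 1 stood far above the rest in CPM, and without it the log2 difference was 0.04. Raw reads in control diet 1 were 1063 for Kcnk3 and 37 for Hcn2, against 940 to 1349 and 31 to 48 in the other control libraries. It was the shallowest library, at 466651 reads on genes, so its high CPM does not stand for many reads. Hcn2 had 16.3, 35.03, 11.8 and 38.7 CPM in EH301 hearts, against 82.3, 15.5, 10.3 and 18.003 CPM in control hearts. The same library was again the highest, and the log2 difference of -0.0024 (SE 0.73, adjusted p = 1) became 0.76 without it. Control diet 1 also had a skeletal muscle marker sum of 3637 CPM, where the control group had a median of 366 CPM and a lowest value of 257 CPM. The 4 EH301 libraries had 278 to 1069 CPM. Whether the sum in control diet 1 bears on Hcn2 or Kcnk3 was not tested. Kcnip2 had 695, 2127, 1118 and 1271 CPM in EH301 hearts, against 520.5, 1300.5, 968 and 1377 CPM in control hearts. The spread within each diet was wide, and the log2 difference was 0.32 (SE 0.40, adjusted p = 1). Kcnd2 had 68.8, 40.9, 57.005 and 46.2 CPM in EH301 hearts, against 64.5, 64.9, 42.9 and 51.8 CPM in control hearts, with a log2 difference of -0.05 (SE 0.24, adjusted p = 1). Kcne1 had 31.5, 44.8, 34.4 and 48.8 CPM in EH301 hearts, against 31.1, 45.7, 28.9 and 25.1 CPM in control hearts. The diets overlapped, at 0.27 (SE 0.26, adjusted p = 1). Gja1 had 138, 95.4, 128 and 83.05 CPM in EH301 hearts, against 147, 123, 154 and 129 CPM in control hearts. Gja1 levels overlapped as well, at -0.31 (SE 0.24, adjusted p = 1).

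The remaining panel genes had too few reads in the diet study for a test. Hcn4 had 7 reads over the EH301 diet libraries, against 6 reads over the control diet libraries. Scn4b had 8 reads over the EH301 diet libraries, against 6 reads over the control diet libraries. Kcnj2 had 18 reads over the EH301 diet libraries, against 8 reads over the control diet libraries. Cacna1g and Gja5 had 20 and 19 reads over the EH301 libraries and 27 and 12 over the control libraries. Kcnj3, strongly lower in S55L hearts of the postpartum study, had 26.6, 7.78, 24.5 and 14.5 CPM in EH301 hearts, against 2.22, 21.1, 16.97 and 13.9 CPM in control hearts. Its diet difference was 0.31 (SE 0.40, adjusted p = 1), with both diets wide. Cacna2d1 had 93.3 to 130 CPM under EH301 and 76.9 to 132 CPM under control diet, and its log2 difference was 0.04 (SE 0.25, adjusted p = 1). The tables of the studies were counted on different gene sets, so levels such as that of Kcnip2, higher here than in the postpartum study, were not compared between them.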

How the data were processed

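Heart RNA of 20 postpartum-study and 10 diet-study samples was made into QuantSeq FWD 3' libraries, per the labels' protocols. The authors deposited raw read counts per gene, and per the submitters' processing notes the tools were Trimmomatic 0.39, STAR 2.7.0f, HTSeq 0.6.1 and DESeq2 and the build GRCm39.p6. The annotation release and strand setting are not given in the sources used here. Counts from the end of a transcript do not see isoforms that share it.

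Symbols were matched by Ensembl ID to GENCODE M21, for 51487 and 52073 IDs. The summary lines of HTSeq entered neither depth nor test. Multiply aligned reads made up 17.5% to 27.3% of postpartum and 35.2% to 39.1% of diet libraries. Ambiguous reads made up 4.45% to 7.08% of postpartum and 1.97% to 2.50% of diet libraries. Reads outside genes made up 5.65% to 10.1% of postpartum and 1.43% to 1.74% of diet libraries. All pairs of columns were compared for identity. Other libraries of a group differed by a chi-square per gene of at least 2.16 and 5.06. After identical columns were used once or left out, 18 and 8 libraries were fitted.

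Each table was fitted alone in R 4.3.3 with edgeR 4.0.16 (filterByExpr by group, TMM, glmQLFit robust, glmQLFTest), leaving 11945 and 10335 genes, and a gene was called at a Benjamini-Hochberg adjusted p below 0.05. Each SE is the size of the log2 fold change over root F. The common biological coefficient of variation was 0.199 and 0.299. The scripts were tested on simulated counts. Alternatives were DESeq2 1.42.0, other scalings, no filter, thinned counts, all columns, a replicate block, the plate column, fewer groups and each library left out.

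Deviations from the group means correlated between same-numbered libraries of S55L PP and WT PP (0.119 to 0.333 over 4 pairs), and at least 1 pair was at or under 0.1 between any other groups. Libraries with different numbers were not compared, so these values cannot show that the numbers pair the groups. What a number marks is not in the labels.

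The members, lists and promoters were chosen with earlier results of these data known. Named with library values are called members with the lowest adjusted p (up to 20 in S55L naive against WT naive, 12 in each other comparison) and Hcn2, Hcn4, Kcnj2, Kcnd2, Kcnip2, Scn4b, Cacna1g, Gja1 and Gja5, and up to 3 called genes of each list. Some genes that this rule names are not reported here.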

Additional observations from a re-analysis of the deposited data

Results flagged for a closer look

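Each group of 4 or 5 libraries was checked for a library far from the others, in 148 groups over the members of both studies. It was found in 7, and chance gives about 1 in 20 groups.

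In the postpartum study, Hcn2 was at 6.99 CPM in S55L PP 1, where the nearest other S55L PP library was at 2.42 CPM. Hcn2 was at 7.14 CPM in S55L naive 3, where the nearest was at 1.99 CPM. The same library had 349 CPM of Kcnk3, with the nearest at 227 CPM, and the lowest Cacnb2 of its group, 46.8 CPM, with the nearest at 50.6 CPM. In the diet study, Hcn2 was at 82.3 CPM and Kcnk3 at 2364 CPM in control diet 1, where the nearest control libraries were at 18.0 and 506 CPM. Control diet 1 was the shallowest library, and its raw reads of these genes, 37 and 1063, lay within the range of the other control libraries. Kcna5 was at 7.45 CPM in EH301 diet 10, where the nearest was at 4.50 CPM. No explanation for these values was tested.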

How the results depend on the processing

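Called members numbered 20 and 19 in the naive and PP genotype comparisons. Leaving out 1 library gave 17 to 20 and 13 to 19. Thinning all libraries to the smallest gave 13 and 13, and the plate column 12 and 8. Of all genes, 5192 and 3767 were called, with 3407 and 2223 after thinning, 2873 and 2108 with the plate column, and 4564 to 4967 and 3086 to 4146 without 1 library. The replicate block gave 21 members in naive hearts, where Kcna5 joined (log2 -0.69, adjusted p = 0.041), and 19 in PP hearts, and changed no other call of a member. In the other comparisons 0 members were called under every setting. Of all genes, WT PP against WT naive had 2 called, and 21 with no filter, 8 by DESeq2, 1 thinned, 21 with the plate column and 2 to 10 without 1 library. S55L PP against S55L naive had 0, and 3 with total counts, 37 with no filter, 18 by DESeq2, 3 thinned, 10 with all columns, 1 with the plate column, 3 with only its groups and 0 to 2 without 1 library. The interaction had 0, and 5 with no filter, 1 by DESeq2, 2 with the plate column and 0 to 2 without 1 library. For the diet the count was 0 to 0 without 1 library.

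Some log2 differences turned sign. Of the called ones only Kcnk3 in naive hearts did, at -0.97 as reported. For naive genotype, Kcnj11 was 0.069, Abcc8 0.018 and Cacna1d 0.070 with total counts, Kcnj11 was 0.15, Kcnk3 0.024 and Gja1 -0.073 with the plate column. For PP genotype, Cacna1d was 0.093 and Gja1 0.11 with total counts, Gjc1 was -0.080 after thinning, Cacna1d was 0.0040 and Gjc1 -0.89 with the plate column. For WT PP against naive, Hcn2 was -0.0020 with the replicate block, Hcn2 was -0.21 with the plate column. For S55L PP against naive, Gja1 was -0.012 with no filter, Gja1 was -0.098 after thinning, Gja1 was -0.029 with the replicate block, Hcn2 was -0.32 with the plate column. For the interaction, Kcnj2 was 0.14 after thinning, Hcn2 was -0.10 and Gja1 0.065 with the plate column. For the diet, Hcn2 was 0.037 with no filter, Kcnd2 was 0.29 after thinning, Hcn2 was 0.022 with all columns, Hcn2 was 0.59, Kcnd2 0.096 and Kcnip2 -0.25 without libraries under 1200000 reads. The cause was not tested. Leaving out 1 library turned the sign of some members. For naive genotype, Cacna1d lay between -0.41 and 0.19. For PP genotype, Cacna1d lay between -0.47 and 0.12. For WT PP against naive, Cacna1g lay between -0.22 and 0.24, Hcn2 between -0.21 and 0.36 and Hcn4 between -0.075 and 0.55. For S55L PP against naive, Cacna1g lay between -0.28 and 0.014, Gja1 between -0.11 and 0.074 and Hcn2 between -0.30 and 1.03. For the interaction, Cacna1g lay between -0.38 and 0.092, Hcn2 between -0.45 and 0.88, Kcnd2 between -0.15 and 0.40, Kcnj2 between -0.20 and 0.095 and Scn4b between -0.12 and 0.25. For the diet, Hcn2 lay between -0.40 and 0.76, Kcnd2 between -0.21 and 0.039, Kcnip2 between -0.030 and 0.51 and Kcnk3 between -1.39 and 0.038.

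Few reads limit Hcn4, Kcnv2, Kcnj12, Cacna1d, Cacna1g, Cacna1h and Hcn2, and Scn4a, Scn3b, Kcna4 and Gja5 were not testable at this depth. The plate column could not be fitted for the diet study, nor the interaction with only its groups.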

Other observations

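Some marker lists moved together and others did not. Of the 10 macrophage markers, edgeR called 10 higher in S55L naive against WT naive hearts and 9 higher in S55L PP against WT PP hearts. Over all genes tested, 21.9% were called higher and 21.6% lower in naive hearts, and 16.3% higher and 15.2% lower in PP hearts. Of the 8 atrial markers tested, 5 rose and 3 fell in S55L naive against WT naive hearts by edgeR. Nppa, the atrial natriuretic peptide that stressed ventricles also make, was at 3007 to 5037 CPM in S55L PP and 754 to 3538 CPM in S55L naive hearts, against 173 to 833 CPM in WT PP and 160 to 439 CPM in WT naive hearts. The kinase-like gene Sbk2 went the other way, at 0.808 to 1.57 and 0.218 to 1.71 CPM in S55L PP and naive hearts, against 5.08 to 27.4 and 7.21 to 29.8 CPM in WT PP and naive hearts. Bmp10 had 137 and 318 reads over the S55L PP and naive libraries and 0 in both WT groups. Of the 9 pericyte and smooth muscle markers tested, 7 fell and 1 rose in naive hearts, the 1 being Acta2. Rgs5, a pericyte marker, was at 115 to 176 and 164 to 197 CPM in S55L PP and naive hearts, against 260 to 304 and 298 to 398 CPM in WT PP and naive hearts. Acta2, smooth muscle actin, was at 1144 to 1936 and 1259 to 3287 CPM in S55L PP and naive hearts, against 57.7 to 433 and 110 to 287 CPM in WT PP and naive hearts. These genes were named after their values were seen.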
